A study of Arabidopsis thaliana with 22 samples.

Results

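Expression was examined for 8 Arabidopsis thaliana genes whose products modify salicylic acid or make N-hydroxypipecolic acid. They were DMR6 (AT5G24530), DLO1 (AT4G10500), UGT74F1 (AT2G43840), UGT74F2 (AT2G43820), UGT76B1 (AT3G11340), ALD1 (AT2G13810), SARD4 (AT5G52810) and FMO1 (AT1G19250), taken by locus identifier for their known place in these pathways, with earlier results of these data in view. All 8 were rows of both read-count tables, which list 23318 genes for leaves and 33318 genes for seedlings. Leaves of 3-week-old plants came from a line labelled as overexpressing AITF1 (OXAITF1) and from the Col-0 wild type, with 2 libraries each. Seedlings labelled 10 days old came from the aitf1-1 asr3-1 double mutant and from the Col-0 wild type at 0, 1 and 3 h, with 3 libraries for each genotype and time. The promoter that drives the transgene, the number of independent lines and the agent given at 0 h are not stated in the labels, and untreated libraries at 1 or 3 h were not analysed here. AITF1 and ASR3 belong to the trihelix family of plant transcription factors, and the study asked how the pair affects defence gene expression.

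Salicylic acid is a plant immune hormone whose active pool is set by its synthesis and by the enzymes that hydroxylate or glucosylate it. DMR6 and DLO1 are related oxygenases that hydroxylate salicylic acid to dihydroxybenzoic acids, and plants that lack DMR6 show raised disease resistance. UGT74F1 forms mainly the salicylic acid O-glucoside and UGT74F2 mainly the glucose ester, both inactive stores, while UGT76B1 glucosylates salicylic acid, isoleucic acid and N-hydroxypipecolic acid. N-hydroxypipecolic acid is a lysine-derived signal of systemic acquired resistance. It is made in sequence by the aminotransferase ALD1, the reductase SARD4 and the monooxygenase FMO1.

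Total counts ranged over 15.3 to 19.4 M per leaf library and 17.1 to 21.6 M per seedling library. The reference annotation names no AITF1 locus, so AT3G11100 was taken for it, being the trihelix locus that carries the difference. As it was picked from these libraries, its values are no independent check of the overexpression or the mutation. AT3G11100 stood at 2950 to 3840 CPM in OXAITF1 leaves and 14.4 CPM in wild-type leaves, and AT3G11100 and ASR3 were each called lower in the double mutant at 0, 1 and 3 h. Their transcripts remained in the double mutant, at 0.547 to 0.587 times the wild-type level for AT3G11100 and 0.537 to 0.639 times for ASR3 over the 3 times. Replicate libraries differed most in OXAITF1 leaves, where the chi-square statistic divided by its degrees of freedom was 72.3, against 11.5 in wild-type leaves and 6.76 to 26.1 in seedlings. Nothing in the labels ties replicates to separate plants or cultures, so p-values reflect variation among libraries that could be technical.

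The sequences just upstream of the genes are shown for the 5 members with the highest leaf fold changes, since factors of the salicylate response are known to bind short motifs in defence promoters. Each is the 250 bases before the annotated gene start, 5′ to 3′ on the gene's strand, from the RefSeq TAIR10.1 assembly. They lie at chr5:8378509-8378758 (plus strand, DMR6), chr4:6490767-6491016 (plus, DLO1), chr3:3556304-3556553 (plus, UGT76B1), chr2:5768167-5768416 (plus, ALD1) and chr1:6653196-6653445 (minus, FMO1). Capitals mark matches, on either strand, to the W-box core TTGAC bound by WRKY factors, the TGACG core bound by TGA factors, the GT-1 site GGTTAA known for trihelix factors, and the GAAATTT motif known for SARD1 and CBP60g.
DMR6: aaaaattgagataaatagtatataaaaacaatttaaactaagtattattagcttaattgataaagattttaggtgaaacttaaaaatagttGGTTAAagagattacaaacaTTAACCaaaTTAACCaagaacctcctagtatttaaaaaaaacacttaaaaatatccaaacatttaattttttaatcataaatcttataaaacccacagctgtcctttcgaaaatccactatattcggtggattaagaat
DLO1: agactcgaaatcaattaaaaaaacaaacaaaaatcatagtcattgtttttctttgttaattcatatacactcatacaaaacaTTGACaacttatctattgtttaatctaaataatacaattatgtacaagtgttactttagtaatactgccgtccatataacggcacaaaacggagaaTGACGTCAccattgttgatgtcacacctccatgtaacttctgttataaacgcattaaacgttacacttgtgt
UGT76B1: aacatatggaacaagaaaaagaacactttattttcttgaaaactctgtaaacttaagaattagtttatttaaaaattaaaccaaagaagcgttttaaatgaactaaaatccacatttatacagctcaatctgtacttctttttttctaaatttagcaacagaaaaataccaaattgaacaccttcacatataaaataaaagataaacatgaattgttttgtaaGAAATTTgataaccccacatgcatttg
ALD1: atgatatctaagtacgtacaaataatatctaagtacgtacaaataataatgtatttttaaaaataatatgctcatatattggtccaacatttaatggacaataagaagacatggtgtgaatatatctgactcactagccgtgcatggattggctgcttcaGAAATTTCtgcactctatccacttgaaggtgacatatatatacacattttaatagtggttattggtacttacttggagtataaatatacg
FMO1: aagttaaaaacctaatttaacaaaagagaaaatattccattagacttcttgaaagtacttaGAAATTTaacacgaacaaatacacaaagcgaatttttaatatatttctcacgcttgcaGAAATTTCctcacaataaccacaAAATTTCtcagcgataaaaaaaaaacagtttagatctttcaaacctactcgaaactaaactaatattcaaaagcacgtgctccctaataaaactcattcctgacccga

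DMR6 held 3 GT-1 matches, at 159, 139 and 130 bases before the gene start, and was the only one of the 8 members with any. DLO1 held 1 W-box core and 2 overlapping TGACG matches on opposite strands, at 72 and 69 bases. GAAATTT occurred at 4 places upstream of FMO1, 2 of them overlapping on opposite strands, at 2 overlapping places upstream of ALD1 and at 1 place upstream of UGT76B1. Among 27437 promoters of the same length, 14.6% held GGTTAA, 18.6% TGACG, 44.9% TTGAC and 12.5% GAAATTT, so these letters are common. Over the 8 members they occurred in 1, 1, 3 and 3 promoters in the same order, with UGT74F2 and SARD4 supplying the other W-box cores. The SARD4 window lies inside the neighbouring gene AT5G52800, and the UGT74F1 window held no match. A match describes the sequence and is no evidence of binding.

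Levels of different genes were compared as mean CPM (counts scaled by library size and TMM factor) per kilobase of exon, within each tissue only. In OXAITF1 leaves DMR6 was highest at 126 CPM per kb, followed by UGT74F2 at 31.2, SARD4 at 15.7, DLO1 at 13.1, ALD1 at 11.8, FMO1 at 4.86, UGT76B1 at 3.53 and UGT74F1 at 0.304. In wild-type leaves the order began with DMR6 at 17.3, UGT74F2 at 12.6 and SARD4 at 7.95 CPM per kb, and the other 5 members were at 0.0216 to 0.586. The library ranges of SARD4, DLO1 and ALD1 overlapped in OXAITF1 leaves, as did those of ALD1, FMO1 and UGT76B1. Below SARD4, neighbours in the wild-type leaf order overlapped throughout. In seedlings UGT74F2 was highest in all 6 groups, at 40 to 73.4 CPM per kb, and ALD1 was lowest in all 6, at 0.0215 to 0.112. DMR6, the highest member in leaves, and UGT76B1 held the next places in seedlings, at 16 to 22.8 CPM per kb for DMR6 and 10.7 to 23.9 for UGT76B1. Wild-type seedlings at 0 h had separate library ranges for all neighbours in the order except FMO1 and DLO1.

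**Figure D1:**
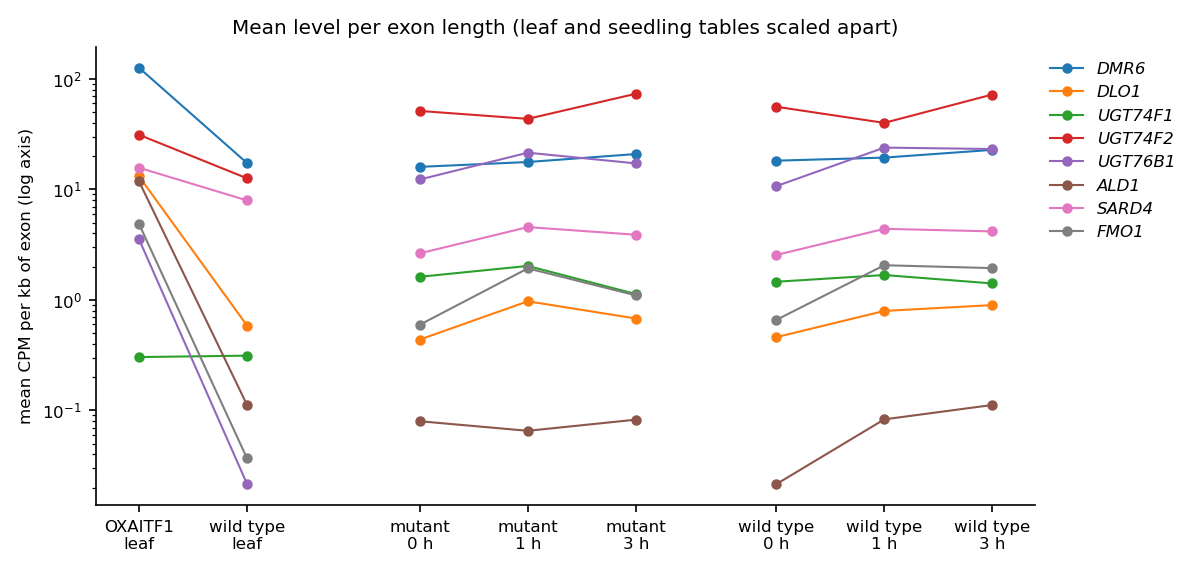
Mean CPM per kilobase of exon (log axis) of the 8 genes in OXAITF1 and wild-type leaves, in double mutant seedlings and in wild-type seedlings at 0, 1 and 3 h; each point is the mean of 2 leaf or 3 seedling libraries, and the tissues were scaled apart. DMR6 is the top gene in leaves and UGT74F2 the top gene in seedlings, where ALD1 lies under 0.12 throughout.

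The leaf comparison asks which members differ when AITF1 is overexpressed. DMR6, DLO1, UGT74F2 and FMO1 were called higher in OXAITF1 leaves (edgeR quasi-likelihood test, Benjamini-Hochberg adjusted p under 0.05), by 2.48-fold for UGT74F2 up to 117-fold for FMO1. Thus 4 of 8 members rose, where 9.36% of the 18639 genes tested were called higher, and 0 members were called lower, where 10.4% of genes were. UGT76B1, ALD1 and SARD4 also had both OXAITF1 libraries above both wild-type libraries without passing the test, so that 7 of 8 members did not overlap, against 35.6% of all genes tested. UGT74F1 was the exception. The members' median log2 fold change was 3.67, beside 0.05 over all genes tested. In such bulk libraries fewer cells of a type and less RNA per cell cannot be told apart.

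Of the salicylate hydroxylases, DMR6 stood at 168 and 205 CPM in the OXAITF1 libraries and at 25 and 26 CPM in the wild-type libraries. Both overexpressor libraries lay far above the wild type, and edgeR gave 2.87 on the log2 scale (SE 0.18, adjusted p = 0.0141). DLO1 stood at 21.3 and 14.3 CPM in OXAITF1 leaves and at 0.747 and 0.844 CPM in wild-type leaves. Its log2 fold change was 4.47 (SE 0.32, edgeR adjusted p = 0.0141), with 10 and 12 counts behind the wild-type values. DLO1 made up 6.55 to 11.2% of the summed CPM of the pair in OXAITF1 leaves and 2.9 to 3.14% in wild-type leaves, so DMR6 remained the main transcript of the hydroxylase pair.

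Among the glucosyltransferases the members differed from each other. UGT74F2, which forms the glucose ester, stood at 50.5 and 58.5 CPM in OXAITF1 leaves and at 22.6 and 21.3 CPM in wild-type leaves, which is a log2 difference of 1.31 (SE 0.15, edgeR adjusted p = 0.0158). UGT74F1, its neighbour on chromosome 2, which forms the O-glucoside, stood at 0.68 and 0.276 CPM in OXAITF1 leaves and at 0 and 0.984 CPM in wild-type leaves. The UGT74F1 groups overlapped, with 14 and 6 counts in OXAITF1 leaves and 0 and 14 counts in wild-type leaves, and the log2 fold change was -0.07 (SE 1.31, edgeR adjusted p = 0.974). UGT76B1, which also acts on N-hydroxypipecolic acid, stood at 11.1 and 1.1 CPM in OXAITF1 leaves and at 0.0747 and 0 CPM in wild-type leaves, where it had 1 and 0 counts. Both OXAITF1 libraries lay above the wild type but were about 10-fold apart from each other, and the log2 fold change of 7.13 (SE 1.87) did not pass (edgeR adjusted p = 0.0613). From the pooled counts, 252 in OXAITF1 and 1 in the wild type, the UGT76B1 ratio was 164 with a 95% counting interval of 29.2 to 6520, which covers counting error only. Taken by library, the UGT76B1 ratio was 306 for OXAITF1 replicate 1 and 30.5 for replicate 2.

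All 3 enzymes of N-hydroxypipecolic acid synthesis had higher values in both OXAITF1 libraries, and FMO1 passed the test. ALD1, the first enzyme, stood at 33.1 and 3.91 CPM in OXAITF1 leaves and at 0 and 0.352 CPM in wild-type leaves. ALD1 had the same replicate gap as UGT76B1, with OXAITF1 replicate 1 well above replicate 2, and its log2 fold change of 6.63 (SE 1.61) fell just short (edgeR adjusted p = 0.0522). Its ratio of pooled counts, 767 in OXAITF1 and 5 in the wild type, was 100 with a 95% counting interval of 42.7 to 309. By library the ALD1 ratio was 183 for OXAITF1 replicate 1 and 21.6 for replicate 2, the second being below that interval. SARD4, the reductase, stood at 25.7 and 16.8 CPM in OXAITF1 leaves and at 9.86 and 11.7 CPM in wild-type leaves, which is a log2 difference of 0.98 (SE 0.26, edgeR adjusted p = 0.0652). SARD4 was thus the one enzyme of the route with a clear transcript level in wild-type leaves. FMO1, the last enzyme, stood at 9.38 and 9.24 CPM in OXAITF1 leaves and at 0 and 0.141 CPM in wild-type leaves. The FMO1 replicates agreed closely, and the log2 fold change was 6.87 (SE 0.64, edgeR adjusted p = 0.0151). With 394 counts in OXAITF1 and 2 in the wild type, the ratio was 128 with a 95% counting interval of 35.3 to 1060.

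**Figure D2:**
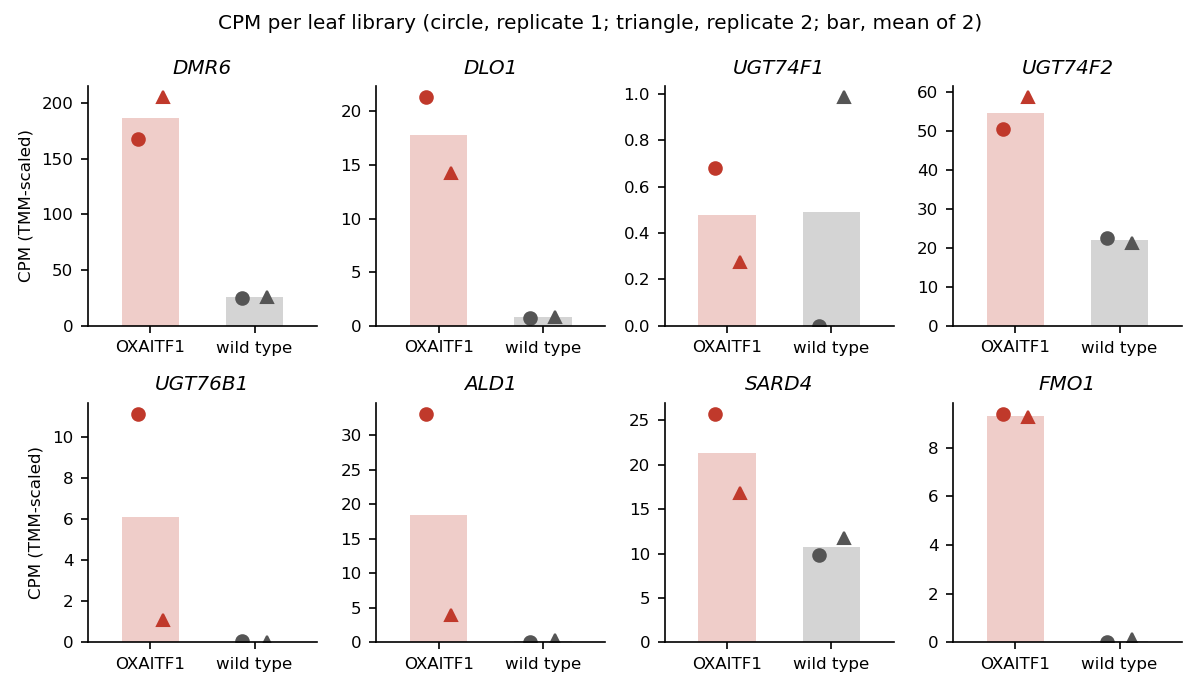
TMM-scaled CPM of the 8 genes in OXAITF1 (left) and wild-type (right) leaf libraries; circles are replicate 1, triangles replicate 2 and bars the mean of 2 libraries, on linear axes that start at 0 and differ between panels. FMO1 replicates coincide near 9 CPM in OXAITF1, while ALD1 (33.1 and 3.91) and UGT76B1 (11.1 and 1.1) are far apart.

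Scaling by library totals in place of TMM moved the median log2 fold change of all genes to 0.46, so leaf values near 0 have no firm sign: UGT74F1 was then at 0.36. The leaf test rested on 2 libraries per group, and without wild-type replicate 1 or without wild-type replicate 2 edgeR called 0 of the 8 members and 0 genes in all, the lone wild-type library then being assumed to vary like the OXAITF1 libraries. Without OXAITF1 replicate 2 it called 7 members and 31.9% of all genes, and DESeq2 called 7 members and 21.8% of all genes. Members with few wild-type counts had unsteady sizes. Without wild-type replicate 1 and without wild-type replicate 2, the log2 fold change was 5.98 and 10.43 for FMO1, 5.68 and 11.42 for ALD1, 9.84 and 6.22 for UGT76B1, and -1.04 and 6.16 for UGT74F1. Without OXAITF1 replicate 1, ALD1 was at 4.39, UGT76B1 at 4.67 and SARD4 at 0.64. Leaf markers also differed: RBCS1A, LHCB1.1 and CA1, 3 of 3 mesophyll markers, were called lower in OXAITF1 leaves at log2 fold changes of -1.99, -2.28 and -2.77. RBCS1A, the small subunit of Rubisco, stood at 5550 and 7990 CPM in OXAITF1 leaves and 26300 and 27500 CPM in wild-type leaves. Of the senescence markers, SAG13 was called higher (4.6, at 27.2 and 4.97 CPM in OXAITF1 and 0.822 and 0.492 CPM in the wild type). ORE1 was not (2.08, edgeR adjusted p = 0.0649, at 35.1 and 78.3 CPM in OXAITF1 and 8.29 and 18.6 CPM in the wild type), and SAG12 was not analysed here. Of the root markers, NRT2.1 reached at most 0.729 CPM in OXAITF1 and 2.69 CPM in wild-type leaves and PRX72 at most 0.046 and 0.211 CPM in the same order. GL2, which is also expressed in leaf epidermis, was called higher (2.21, at 12.6 to 15.4 CPM in OXAITF1 and 2.39 to 3.66 CPM in the wild type). The part of these marker differences in the members' values was not tested.

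Genes around the members gave the leaf context, from lists of 5 to 11 genes. Of 5 salicylate synthesis genes, ICS1, the isochorismate synthase, and PBS3, which conjugates isochorismate to glutamate, were called higher (log2 fold changes 1.4 and 2.46), with a list median of 0.64. Of 11 regulators and receptors, SARD1, WRKY70, WRKY46 and TGA1 were called higher (1.66, 1.04, 1.38 and 0.86), and none was called lower. Their median was 0.26, smaller than the shift of the all-gene median between scalings. Among the 10 salicylate response markers, PR1, PR2, NIMIN1, WRKY38 and PNP-A were called higher (7.92, 3.16, 2.69, 3.03 and 3.71), with a median of 2.44. PR1, like ALD1 and UGT76B1, was much higher in OXAITF1 replicate 1 than in replicate 2, at 116 and 10.3 CPM, against 0.374 and 0.141 CPM in the wild type.

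Lysine genes beside the route moved in both directions. LKR/SDH, which degrades lysine by another route, was called higher (log2 fold change 4.7), at 74.9 and 293 CPM in OXAITF1 leaves and 7.4 and 6.75 CPM in wild-type leaves, here with replicate 2 above replicate 1. AGD2 and DAPDC2, which act in lysine synthesis, were called lower (-1.05 and -0.77), and the median of the 5 genes was -0.77. Scaling by library totals narrowed both gaps. Mean CPM in OXAITF1 and wild-type leaves was then 59.4 and 92.6 for AGD2, in place of 51.6 and 107. For DAPDC2 it was 49.6 and 63.3, in place of 43 and 73.2. Of 6 other salicylate-modifying genes tested, the amido synthetase GH3.5 was called higher (3.55) and the esterase MES2 lower (-1.94), with a median of -0.35, which is smaller than that shift between scalings. Of 7 close relatives tested, UGT74C1, UGT74B1 and UGT76C2 were called lower (-2.64, -1.49 and -2.68), and the list median was -1.04. UGT74E2 was called higher (3.17), from 30 counts over the OXAITF1 libraries and 2 over the wild-type libraries. Calls among sequence relatives thus did not share a direction, though the higher call rests on few counts.

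Seedlings were followed from 0 h to 1 and 3 h, and FMO1, SARD4 and UGT76B1 were called higher at 1 h in both genotypes. UGT74F2 fell at 1 h in the wild type and stood above its 1 h level at 3 h in both genotypes. DMR6 and DLO1, both called higher in OXAITF1 leaves, were not called in any seedling comparison by edgeR without a replicate term and with all libraries, though each was called in the double mutant without 1 of its 0 h libraries. ALD1 had 0 to 6 counts in every seedling library and was not tested. With 7 members tested, the number called in the double mutant was 3 higher at 1 h against 0 h, where 20.3% of 21028 genes were called higher, and 3 higher at 3 h against 0 h, where 13.2% were. In the wild type it was 3 higher and 1 lower at 1 h, where 25.2% and 23% of genes were, and 3 higher at 3 h, where 15.4% were. The 1 h and 3 h comparisons of a genotype share their 0 h libraries. At 1 h in the wild type the 4 of 7 members called stand against 48.2% of all genes called in either direction, so that share is close to the background. The 3 of 7 called in the double mutant at 1 h stand against 39.5%, which is close as well. At 3 h against 0 h, 19.5% of all genes in the double mutant and 26.6% in the wild type were called in either direction. Seedlings held both root and leaf transcripts, with PRX72 at 11.7 to 38.8 CPM and RBCS1A at 1900 to 4590 CPM. At 1 h against 0 h, 1 of 4 root markers was called higher and 0 of 3 mesophyll markers lower in the double mutant, and 2 of 4 higher and 2 of 3 lower in the wild type. The part of these marker differences in the members' time course was not tested.

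FMO1 stood at 1.17, 1.07 and 1.19 CPM at 0 h, 3.41, 4 and 3.67 CPM at 1 h and 2.4, 1.87 and 2.03 CPM at 3 h in double mutant seedlings. In wild-type seedlings it stood at 0.744, 1.43 and 1.61 CPM at 0 h, 4.45, 2.8 and 4.6 CPM at 1 h and 3.48, 3.41 and 4.28 CPM at 3 h. All libraries at 1 and 3 h lay above all 0 h libraries of their genotype, at 13 to 93 counts per library. The log2 fold change at 1 h was 1.69 (SE 0.25, edgeR adjusted p = 6.74e-05) in the double mutant and 1.63 (SE 0.25, edgeR adjusted p = 5.75e-05) in the wild type. At 3 h it was 0.88 (SE 0.26, edgeR adjusted p = 0.025) in the double mutant and 1.54 (SE 0.25, edgeR adjusted p = 0.000298) in the wild type. Between 1 and 3 h FMO1 fell in the double mutant, at a log2 value of -0.81 (SE 0.23, edgeR adjusted p = 0.0188), where 12.2% of genes were called lower, while in the wild type the value was -0.08 (SE 0.22, edgeR adjusted p = 0.823). The double mutant call at 3 h against 0 h was lost without 0 h replicate 1, 2 or 3 or 3 h replicate 1 or 3 (adjusted p 0.0571 to 0.0945). The call at 3 h against 1 h was lost without 1 h replicate 2 or 3 h replicate 2 or 3 (adjusted p 0.0577 to 0.0725).

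SARD4 stood at 3.39, 3.78 and 3.56 CPM at 0 h, 6.46, 5.35 and 6.73 CPM at 1 h and 5.08, 5.71 and 5.05 CPM at 3 h in double mutant seedlings. In wild-type seedlings it stood at 3.38, 3.56 and 3.43 CPM at 0 h, 6.08, 5.61 and 6.19 CPM at 1 h and 3.96, 6.48 and 6.52 CPM at 3 h. The 0 h libraries were tightly grouped below all later ones, and wild-type replicate 1 at 3 h was the lowest of the later libraries. At 1 h the log2 fold change was 0.78 in the double mutant (SE 0.17, edgeR adjusted p = 0.00145) and 0.78 in the wild type (SE 0.17, edgeR adjusted p = 0.00112). At 3 h it was 0.56 in the double mutant (SE 0.17, edgeR adjusted p = 0.0274) and 0.71 in the wild type (SE 0.17, edgeR adjusted p = 0.00609). The double mutant call at 3 h was lost when any 1 of its 6 libraries was left out (adjusted p 0.0511 to 0.0894). ALD1, which acts before SARD4, reached at most 0.29 CPM in double mutant and 0.313 CPM in wild-type seedlings.

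UGT76B1 stood at 26.5, 23.3 and 14.1 CPM at 0 h, 39.4, 38.9 and 33.4 CPM at 1 h and 34.9, 30.5 and 23.8 CPM at 3 h in double mutant seedlings. In wild-type seedlings it stood at 9.33, 24 and 22.3 CPM at 0 h, 48.8, 35.3 and 40.1 CPM at 1 h and 33.8, 44.5 and 41.9 CPM at 3 h. Libraries at 1 h lay above those at 0 h in both genotypes, and the 0 h groups each held 1 low library. UGT76B1 rose at 1 h by a log2 fold change of 0.81 in the double mutant (SE 0.27, edgeR adjusted p = 0.0252) and 1.15 in the wild type (SE 0.27, edgeR adjusted p = 0.00234). At 3 h the double mutant value of 0.49 (SE 0.27, edgeR adjusted p = 0.228) did not pass and the wild-type value of 1.11 (SE 0.27, edgeR adjusted p = 0.00742) did. The double mutant call at 1 h was lost without 0 h replicate 3, 1 h replicate 1 or 1 h replicate 2, at adjusted p of 0.122, 0.0676 and 0.0671.

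UGT74F2 stood at 86.7, 83 and 98.6 CPM at 0 h, 69, 77.9 and 80.6 CPM at 1 h and 120, 120 and 144 CPM at 3 h in double mutant seedlings. In wild-type seedlings it stood at 100, 93.5 and 99.7 CPM at 0 h, 47.4, 80.9 and 80.8 CPM at 1 h and 122, 117 and 139 CPM at 3 h. All 1 h libraries were below all 0 h and all 3 h libraries of their genotype, a different course from that of UGT76B1. The log2 fold change at 1 h against 0 h was -0.24 in the double mutant (SE 0.15, edgeR adjusted p = 0.231) and -0.49 in the wild type (SE 0.15, edgeR adjusted p = 0.0144), the second being -0.3 without wild-type 1 h replicate 1. At 3 h against 1 h UGT74F2 rose by 0.76 in the double mutant (SE 0.15, edgeR adjusted p = 0.00208) and 0.85 in the wild type (SE 0.15, edgeR adjusted p = 0.000866). In that comparison 13.8% of genes in the double mutant and 12.9% in the wild type were called higher. At 3 h against 0 h the value was 0.52 in the double mutant (SE 0.15, edgeR adjusted p = 0.0227) and 0.37 in the wild type (SE 0.15, edgeR adjusted p = 0.084). The double mutant call was lost without 0 h replicate 1 or 2 or 3 h replicate 3 (adjusted p 0.0717, 0.0852 and 0.107).

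UGT74F1 stood at 2.58, 2.58 and 2.47 CPM at 0 h, 3.25, 3.11 and 3.21 CPM at 1 h and 2.17, 1.35 and 1.8 CPM at 3 h in double mutant seedlings. In wild-type seedlings it ranged over 1.98 to 2.86 CPM at 0 h, 2.41 to 2.99 CPM at 1 h and 1.98 to 2.57 CPM at 3 h, with overlap between the times. UGT74F1 fell between 1 and 3 h in the double mutant, at a log2 value of -0.84 (SE 0.2, edgeR adjusted p = 0.00577), and with FMO1 it made 2 members called lower in that comparison. The wild-type value was -0.26 (SE 0.2, edgeR adjusted p = 0.367). In the double mutant UGT74F1 and UGT74F2 were therefore called in opposite directions between 1 and 3 h. UGT74F1 supplied 1.11 to 5.09% of the summed CPM of the 2 genes over the 18 seedling libraries. The genes share no 50-base window of transcript, and their longest shared run is 48 bases. AT2G43850 overlaps the last 50 bases of UGT74F1 on the other strand, and the pseudogene AT2G43830 overlaps the last 62 bases of UGT74F2 in the same way. SARD4 overlaps AT5G52800 on its own strand over its first 89 bases. The noncoding locus AT2G09505, opposite 356 bases of UGT74F1, is not a row of the tables used here. Reads within the stretches that overlap on opposite strands cannot be assigned to 1 gene, as the strand setting is not given. In the 89 bases of SARD4 shared with AT5G52800, strand could not separate the 2 genes in any case.

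Neither hydroxylase was called at any time by edgeR without a replicate term and with all libraries. DMR6 stood at 20 to 30.1 CPM at 0 h, 22.8 to 28.9 CPM at 1 h and 29.6 to 32.7 CPM at 3 h in double mutant seedlings, and at 22.7 to 31, 27 to 29.5 and 30.8 to 35.6 CPM at the same times in wild-type seedlings. The DMR6 log2 fold change at 3 h against 0 h was 0.4 in the double mutant (SE 0.14, edgeR adjusted p = 0.0597) and 0.32 in the wild type (SE 0.14, edgeR adjusted p = 0.107). Without double mutant 0 h replicate 1, the highest 0 h library of that genotype, DMR6 was called in the double mutant at 0.36 at 1 h and 0.61 at 3 h. DLO1 had 5 to 34 counts per seedling library, at 0.293 to 1.74 CPM in double mutant and 0.4 to 1.62 CPM in wild-type seedlings. Its log2 fold change at 1 h was 1.12 (SE 0.54, edgeR adjusted p = 0.11) in the double mutant and 0.76 (SE 0.55, edgeR adjusted p = 0.271) in the wild type. The double mutant value was 1.89 without 0 h replicate 3, the highest 0 h library of that genotype, and was then called (adjusted p = 0.0281).

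**Figure D3:**
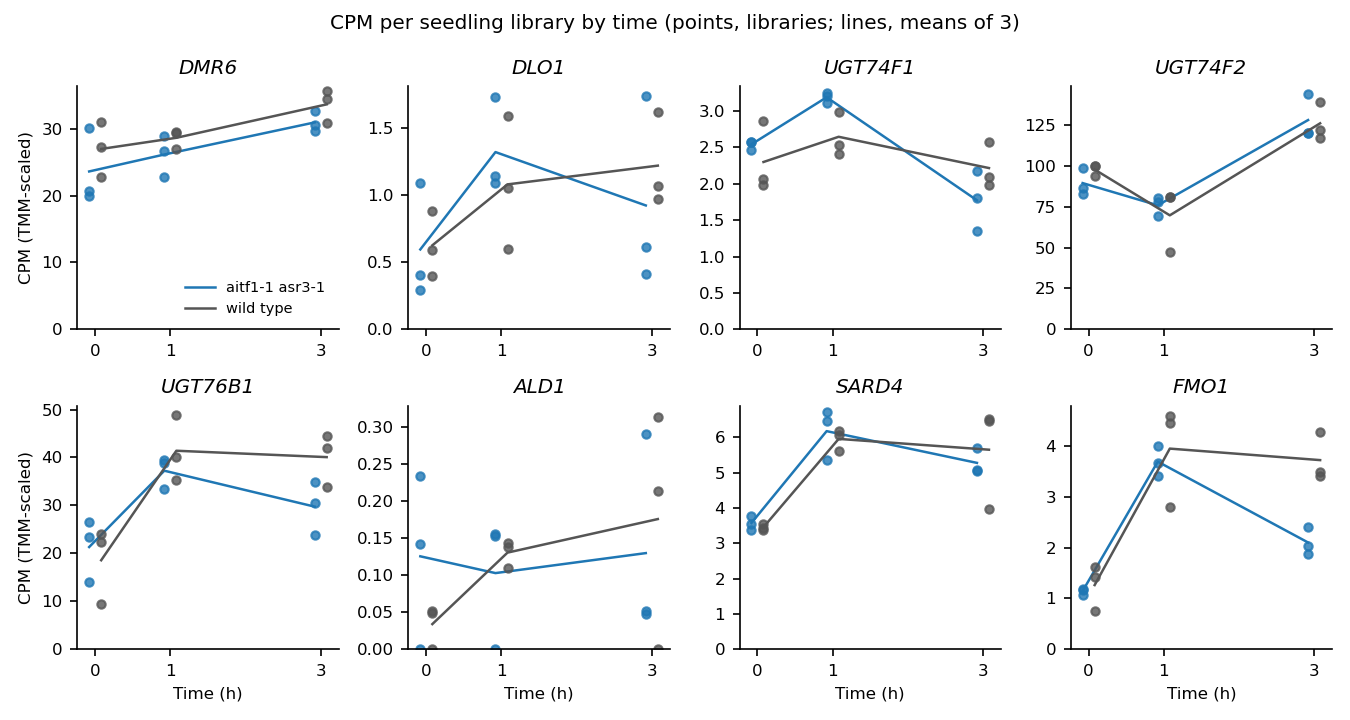
TMM-scaled CPM of the 8 genes against time (0, 1 and 3 h) in aitf1-1 asr3-1 double mutant (blue) and wild-type (grey) seedlings; points are single libraries and lines join means of 3. UGT76B1, SARD4 and FMO1 are higher at 1 h than at 0 h, UGT74F2 is lowest at 1 h, and FMO1 at 3 h is 1.87 to 2.4 CPM in the double mutant and 3.41 to 4.28 CPM in the wild type.

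The genotype comparison asks whether the aitf1-1 and asr3-1 mutations together changed these genes. By edgeR 0 of 7 tested members were called between these genotypes at 0, 1 or 3 h or averaged over the times, where 0.357%, 0.262%, 0.276% and 1.11% of genes were called. At an unadjusted p under 0.05 the counts were 0, 0, 1 and 1 in the same order, each being FMO1, where 5.65%, 6.59%, 6.66% and 12.3% of all genes passed, and DESeq2 called 0 in each. At 3 h FMO1 stood at 2.4, 1.87 and 2.03 CPM in the double mutant and 3.48, 3.41 and 4.28 CPM in the wild type. The groups did not overlap, as was so for 5.65% of genes in that direction, and the log2 fold change was -0.82 (SE 0.23, edgeR unadjusted p = 0.00287, adjusted p = 0.328). Of the other members at 3 h, UGT76B1 had the lowest adjusted p, with a value of -0.43 (SE 0.27, edgeR adjusted p = 0.81) and overlapping groups. For DMR6 the values were -0.2, -0.13 and -0.12 at 0, 1 and 3 h (SE 0.14 each). Its larger leaf difference of 2.87 came from overexpression in another tissue at another age, so the sizes are not directly comparable. SARD4 stayed within 0.1 of 0 at each time (SE 0.16 to 0.17), which bounds any difference more tightly than for DLO1 (SE 0.5 to 0.59).

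The change over time was tested between genotypes as an interaction. By edgeR 0 members and 0 of 21028 genes were called at 1 or 3 h, and DESeq2 called 0 members. At an edgeR unadjusted p under 0.05, 0 members passed at either time. Few genes did so at all, 2.25% at 1 h and 4.06% at 3 h. FMO1 had the interaction furthest from 0 at 3 h, -0.66 (SE 0.36, edgeR adjusted p = 0.996), followed by UGT76B1 at -0.62 (SE 0.38, edgeR adjusted p = 0.996). The interaction from 1 h to 3 h, added after the falls in the double mutant were seen, gave 0 members and 0 genes called by edgeR and 0 members by DESeq2. At an unadjusted p under 0.05, 1 member passed, where 2.52% of all genes did. That member was FMO1, at -0.73 (SE 0.32, edgeR unadjusted p = 0.0382, adjusted p = 1), and UGT74F1 was at -0.59 (SE 0.28, edgeR adjusted p = 1). The falls of FMO1 and UGT74F1 between 1 and 3 h are therefore not shown to differ between genotypes.

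**Figure D4:**
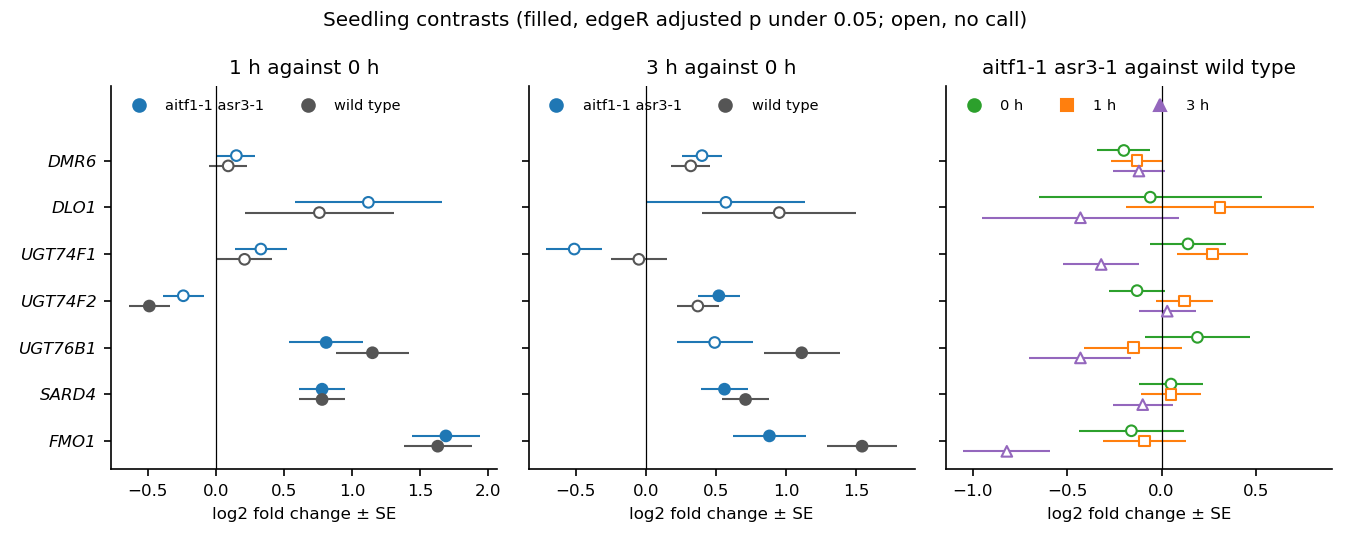
Log2 fold changes (points) with standard errors (bars) of the 7 tested genes for 1 h against 0 h (left) and 3 h against 0 h (middle) in each genotype, and for double mutant against wild-type seedlings at each time (right); filled points were called by edgeR. All genotype points are open, and FMO1 at 3 h lies at -0.82.

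Other pathway genes moved with time as well. Of 5 salicylate synthesis genes, ICS1, EDS5 and PBS3 were called higher at 3 h in both genotypes, ICS1 by 2.38 in the double mutant and 2.39 in the wild type. EDS5, which exports the isochorismate precursor from plastids, was at 2.3 in the double mutant and 2.55 in the wild type at 1 h. At that time 2 synthesis genes were called higher and 0 lower in the double mutant. The wild type had 2 called higher and 1 lower. Of 11 regulators and receptors, 6 were called higher in the double mutant and 7 in the wild type at 1 h, and 8 in each genotype at 3 h. None was called lower. Over all genes, 20.3% in the double mutant and 25.2% in the wild type were called higher at 1 h. At 3 h these shares were 13.2% and 15.4%. CBP60g, an activator of ICS1, stood at 1.92 in the double mutant and 2.39 in the wild type at 1 h. LKR/SDH was called lower at 1 h, at -1.37 in the double mutant and -1.77 in the wild type. GH3.5 was called lower likewise, at -0.67 and -1.04 in the same order, whereas both were higher in OXAITF1 leaves. At 1 h, 0 of 9 other salicylate-modifying genes tested were called higher and 2 lower in the double mutant. In the wild type 2 were called higher and 2 lower. Of 7 salicylate response markers tested, the double mutant had 3 called higher and 0 lower at 1 h. The wild type had 3 higher and 1 lower, and at 3 h each genotype had 2 higher and 0 lower. Of 7 relatives of the members tested, 2 were called higher and 1 lower in the double mutant at 1 h. The wild type had 3 called higher and 1 lower, and the median was -0.06 in each genotype. UGT74E1 was called higher at 6.96 in the double mutant and 7.31 in the wild type at 1 h. UGT74B1, a glucosinolate glucosyltransferase, was called higher at 2.87 and 3.16 in the same order.

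Members were also compared by the shape of their course over the 18 seedling libraries, as the root-mean-square difference of centred log2 CPM, where 0 is an identical course. Among the 7 members tested, UGT76B1 was nearest to FMO1 (0.362) and UGT74F2 farthest from it (0.914). SARD4 was the member nearest to DMR6 (0.349), but SARD4 itself had a standard deviation of 0.376. The distance between DMR6 and SARD4 therefore does not show a shared course. The 3 genes nearest to FMO1 among all named genes were PMSR2, MDHAR and RLP52 (0.244 to 0.27). HWI1, DUR and GSTU9 were nearest to UGT76B1 (0.175 to 0.183), and CYSC1, ALDH2B4 and AAE3 to UGT74F2 (0.118 to 0.151). NPX1, XIH and NUDT16 were nearest to SARD4 (0.132 to 0.138), and EXO70D1, GTE2 and CSLA07 to UGT74F1 (0.194 to 0.202). Genes that vary little have smaller distances, so the values rank within a member only. These are descriptions over libraries that share genotype and time, with no test.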

How the data were processed

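RNA-seq read counts per gene were analysed for 4 leaf and 18 seedling libraries. The authors deposited raw whole-number counts, not normalized; per the submitters' processing notes they used HISAT2 2.1.0, featureCounts from Subread 1.6.5 and TAIR10. The sources used here do not give the annotation release, strand setting or treatment of multi-mapping reads. Seedlings are 14 days old in the growth text and 10 in the labels, and leaves are named as the extracted tissue of every sample. All 22 single-library files equalled their table columns.

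Groups and replicate numbers came from the labels. Leaf and seedling counts were fitted separately with edgeR 4.0.16 in R 4.3.3 (TMM factors, filterByExpr with a minimum count of 10, glmQLFit and glmQLFTest, two-sided), with 2 and 12 residual degrees of freedom. Benjamini-Hochberg adjustment ran over all 18639 or 21028 genes tested in each of 14 comparisons, of which the interaction from 1 h to 3 h was added after the data were seen, and standard errors were derived from F. All 8 members passed the filter in leaves and 7 in seedlings. CPM values are TMM-scaled. Counting intervals are exact at the 95% level. The fits were tested on simulated data for the leaf comparison and for wild-type seedlings at 1 h against 0 h. Only genes with a high mean count were changed there, so genes with very few counts in a group were not covered.

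Every member was described whether called or not; other genes were named from fixed lists where called, and 3 genes by likeness for each member called in seedlings (prior count 2). The members and lists were chosen with earlier results of these data known. Alternatives were DESeq2 1.42.0, other scalings and filters, a replicate block, the compared libraries alone and each library left out. RefSeq TAIR10.1, which matched 23057 of 23318 leaf and 32830 of 33318 seedling identifiers, gave names, exon lengths and upstream sequence; protein sequences were not used here.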

Additional observations from a re-analysis of the deposited data

How the results depend on the processing

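Of 14 counts of members called, 11 stayed within 1.5 times under every alternative run, and no fold change of a called member reversed. Those 11 include every genotype and interaction count, each of which was 0 throughout, so no ratio applies to them. In leaves, where 4 members were called, library totals alone (which move the median of all genes to 0.46 on the log2 scale) gave 7, DESeq2 7, the replicate block 0, and leaving out 1 library 0 to 7. The calls over all genes moved too: 19.8% as reported, 34.4% with library totals, 21.8% with DESeq2, 0% with the block, and 0 to 32.5% with 1 library left out. In leaves the block leaves fewer residual degrees of freedom than the 2 of the main fit, so its 0 calls cannot decide about pairing. At an edgeR unadjusted p under 0.05, 32.5% of leaf genes passed with the block and 38.9% without it. In wild-type seedlings at 3 h against 0 h, 3 were called and 5 with the replicate block, which added DLO1 and UGT74F2. Over all genes the block called 6054 there, and the main fit 5584. The block also called DLO1 in the double mutant at 1 h (1.2, edgeR adjusted p = 0.00986). In double mutant seedlings at 3 h against 0 h, 3 were called and leaving out 1 library gave 0 to 2. Fold changes of called members kept their call in 230 results under alternatives and lost it in 35. FMO1 between the double mutant and the wild type at 3 h ranged over -0.93 to -0.71, with adjusted p of 0.165 to 0.736. The causes were not tested. After group means were removed, same-numbered seedling libraries had a median r of 0.0726 (-0.221 to 0.365), against -0.0488 for other pairs, and 13 of 18 correlated best with their own number, which hints at pairing. Among same-numbered pairs 19 of 45 were over 0.1, against 14 of 90 other pairs. Numbers were still not taken to pair samples, as the labels do not say that a number marks a shared batch. In 0 of 9 pairs of groups compared were all 3 same-numbered pairs over 0.1. Pairing is therefore neither shown nor excluded, and the replicate block gives the results if numbers do pair. Leaf counts of 0 to 5 in wild-type libraries limit the fold changes of UGT76B1, ALD1 and FMO1. SARD4 and UGT74F2 calls at some times also depended on sharing the spread over all 18 libraries: with the 6 compared libraries alone, wild-type UGT74F2 at 1 h had an adjusted p of 0.0544 and wild-type SARD4 at 3 h 0.0698.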
